A study of Saccharomyces cerevisiae with 22 samples.

Results

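Of the 357629 distinct Ty5 insertion sites listed in 22 calling-card libraries of Saccharomyces cerevisiae, 1560 were listed in at least 6 libraries. A site is a chromosome, a position and a direction, so these recurring sites are single bases of the genome entered in the same direction in many libraries. They were chosen by the number of deposited files that list them, and 302304 sites listed in 1 file served for comparison. The rule therefore used the listings themselves, and the number of files, the reads and the shares of sites given below are descriptions without a test unless a test is named.

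Ty5 is a yeast retrotransposon that copies itself through RNA and inserts the DNA copy with its integrase. In normal cells the integrase binds the silencing protein Sir4, which carries Ty5 to silent chromatin at the telomeres and the mating-type loci. In the calling-card assay a DNA-binding protein is fused to a part of Sir4, so that Ty5 inserts near the DNA that the protein binds, and the insertions are found by inverse PCR and sequencing.

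All strains carried his3∆1, leu2∆0, ura3∆0, trp1::Hyg and a deletion of SIR4 by KanMX. The diploid MATa/MATα strain, which was also heterozygous for met15∆0 and lys2∆0, gave a library without any Sir4, 3 libraries that overexpressed Gal4, Leu3 or Gcn4 fused to Sir4 from a plasmid, and 16 multiplex libraries. In the multiplex, 8 fusions (Gal4, Kar4, Lee1, Rgm1, Rpi1, Sef1, Sfg1 and Yrm1) were told apart by a barcode in Ty5 within each of 2 pools, which the series text calls biological replicates. A haploid MATa strain with met15∆0 and THI2::sir4 at the native locus gave 1 library in complete medium and 1 from cells starved of thiamine. The medium held 2% glucose or galactose. The sugar is not stated per library. The libraries listed 4755 to 79573 sites and 74066 to 4539295 reads each. Each multiplex fusion had 2 libraries, and the other 6 libraries stood alone without a replicate.

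Recurrence fell off steeply. The 22 files together listed 37420 sites in 2 files, 10719 in 3, 3872 in 4 and 1754 in 5. Just inside the threshold 770 sites were listed in 6 files, with a median of 182 reads over all libraries, and just outside it the 1754 sites in 5 files had a median of 123 reads. The median listing held 10 reads at the 6-file sites and 9 at the 5-file sites. The sites in 6 and 5 files were thus close in reads per listing, and the boundary divides a continuum. Above it, 107 sites were listed in 10 or more files and 20 in 13 or more.

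The 2 most widely listed sites lay on chromosome 3, at positions 1430 and 4323 in the plus direction, with GEX1, a glutathione exchanger gene at the left chromosome end, as the nearest gene start. In the reference strain of yeast the left end of chromosome 3 carries the native Ty5 element. Both were listed in 20 libraries and were absent from the Gal4 and Leu3 plasmid libraries. Position 1430 held 120739 reads in the Sir4-free library, 6677 in the Gcn4 plasmid library, 3242 to 117609 in the 16 multiplex libraries, 105452 in Thi2 complete medium and 182461 after thiamine starvation. Position 4323 held 12221, 30806, 218 to 2340, 298499 and 297853 reads in the same order. In every library that listed them, these positions stood far above the median listing.

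Position 665307 on chromosome 11, in the plus direction near GEX2, the paralogue of GEX1, was listed in 17 libraries. It held 3973 reads in the Sir4-free library and 8 to 903 reads in the 16 multiplex libraries, and it was absent from the 3 plasmid and both Thi2 libraries. The minus site at position 566676 on chromosome 5, near the uncharacterised gene YER187W, was listed in 16 libraries, with 576 reads in the Sir4-free library and 13 to 480 in the multiplex libraries that listed it. GEX1 and GEX2 are near-identical copies, so reads at one may belong to the other. Sites near 2 other chromosome ends lacked listings in both Gal4 pools. The plus site at position 175 of chromosome 5, near YEL077C, held 151 reads in the Sir4-free library and 303 in Sfg1 pool 1, and neither Gal4 pool listed it. The minus site at position 947847 of chromosome 16, near YPR204W, held 118 Sir4-free reads, 63 in Sfg1 pool 1 and none in either Gal4 pool. YEL077C and YPR204W are Y′ element genes, whose near-identical copies sit at many chromosome ends, so the end to which such reads belong is uncertain.

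Within 10 kb of the first or last listed site of a chromosome lay 81 of the 1560 recurring sites, or 5.19%, against 3.10% of the 1-file sites. Among the 20 sites listed in 13 or more files 9 lay there. The recurring sites were spread over all chromosomes, from 0.886 per 1000 distinct sites on chromosome 8 (13 sites) to 6.50 on chromosome 6 (49 sites) and 6.39 on chromosome 13 (183 sites).

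By the rule every recurring site was listed in libraries with a fusion, because only the Sir4-free library lacked one. Most recurring sites were listed in the Sir4-free library too. The Sir4-free library listed 893 of them, or 57.2%, and lacked 667. It listed 47.9% of the sites in 5 files. This is the largest library, with 79573 of the 357629 distinct sites, and it counts among the 6 files of the rule. At least 1 plasmid library listed 550, at least 1 Thi2 library listed 260 and both Thi2 libraries listed 29. Among the multiplex fusions the median site was listed for 4 of 8, and 13 sites were listed for all 8. Both pools of at least 1 fusion listed 1379 sites, and 181 sites were listed in both pools of no fusion. All 3 Gal4 libraries, the plasmid library and both pools, listed 145 sites.

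Recurring sites carried more reads than 1-file sites in 22 of 22 libraries. The median was 25 against 6 reads in the Sir4-free library, 39.5 against 8 with Gal4 on a plasmid, 22.5 against 6 with Leu3 and 19 against 7 with Gcn4. It was 130 against 20 in Thi2 complete medium and 424 against 9 after starvation. In the multiplex libraries it lay between 3 and 15 at recurring sites and between 2 and 4 at 1-file sites. The narrowest gap was in Sfg1 pool 2, with 3 against 2 reads, and in Kar4, Lee1 and Rpi1 pool 2, with 4 against 3. A site with more reads has more chance to be listed, so this difference is part of how the sites were chosen. Listings of 1 read made up 18.7% of the 10953 listings at recurring sites and 24.5% of those at 1-file sites, and 416 recurring sites had no listing of 1 read. Recurring sites held 2.55% to 28.6% of the reads of a library, with a median of 14.1%. Without the 2 chromosome 3 positions at 1430 and 4323 they held 1.66% to 26.5%, with a median of 4.51%.

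**Figure D1:**
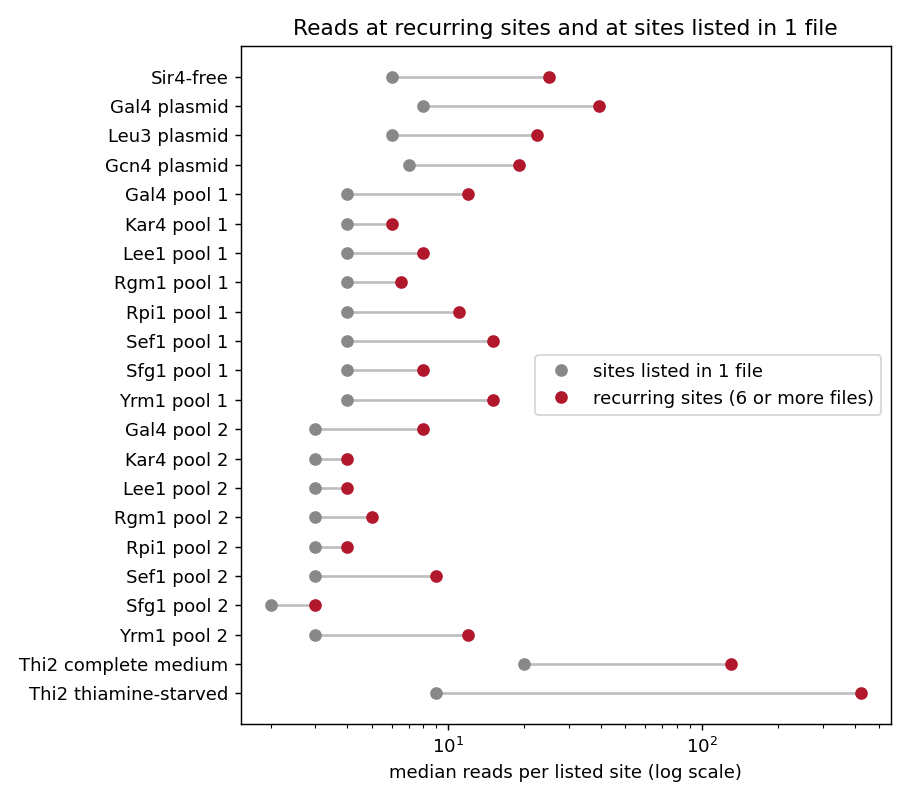
Median reads per listed site (log scale) at recurring sites (red) and at sites listed in 1 file (grey) in each of the 22 libraries. The red point lies to the right in all 22 libraries, from 3 against 2 reads in Sfg1 pool 2 to 424 against 9 in Thi2 thiamine-starved.

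Direction set the 5 plasmid and Thi2 libraries apart. As deposited, 888 recurring sites were plus and 672 minus, or 56.9% plus (95% exact binomial interval 54.4% to 59.4%, counting error only), against 47.7% at 1-file sites. That interval takes the sites as independent, but many lay close together, as given below, so it may be too narrow. In the plasmid and Thi2 libraries 81.6% to 91.5% of the recurring sites listed there were plus, although all sites of those libraries were 49.8% to 50.6% plus. In the multiplex libraries the recurring sites were 50.9% to 60% plus.

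The minus coordinates of those 5 libraries were displaced. When the sites of 1 library were slid along the others, plus sites coincided best without a shift in every library. Minus sites also coincided best without a shift in the Sir4-free and multiplex libraries, but at a shift of -3 bp in the plasmid and Thi2 libraries. The minus sites of the Gcn4 plasmid library coincided with 2638 sites of other libraries at -3 bp and with 669 as deposited, against a median of 745 over other shifts. The Gal4 plasmid library gave 2743 against 1188 (median 1204), Leu3 1323 against 384 (432), Thi2 complete medium 2067 against 517 (626) and Thi2 starved 630 against 168 (204). With the minus positions of these 5 libraries moved by 3 bp, an alternative chosen after seeing the data, 1860 sites were recurring, 888 plus and 972 minus, or 47.7% plus. The plus share then lay between 44.4% and 51.9% in all 22 libraries. As deposited, minus sites shared by the plasmid or Thi2 libraries with the others are therefore under-counted, and a minus site that they do share can join reads of bases 3 bp apart. This holds also for the counts of sites listed in plasmid, Thi2 and all 3 Gal4 libraries given above. All other values here use the deposited positions.

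**Figure D2:**
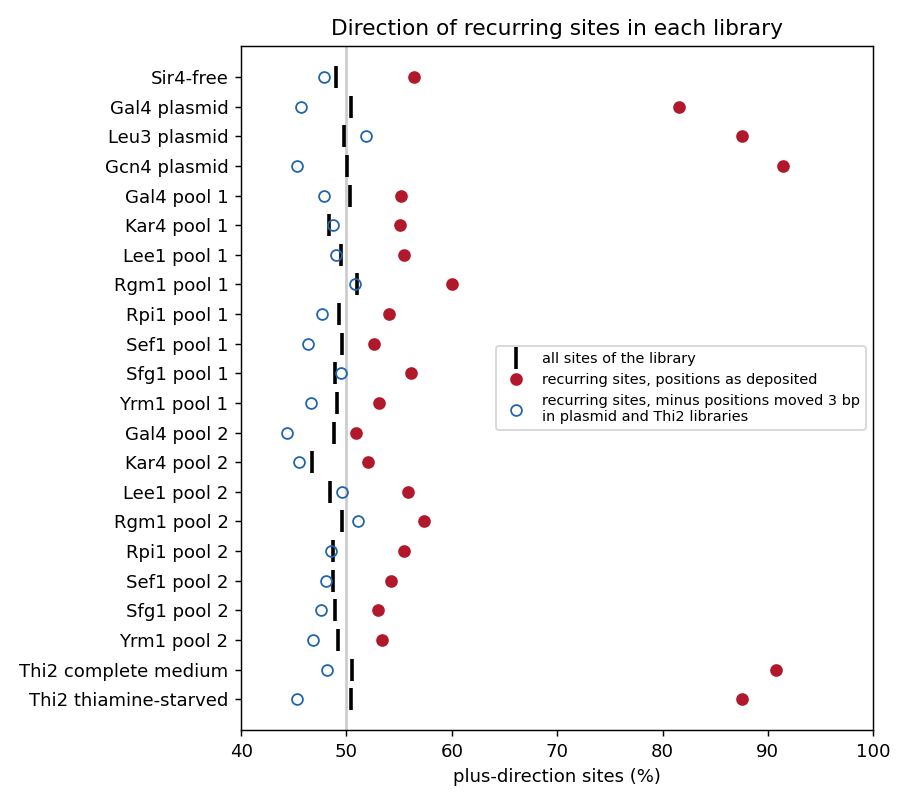
Percentage of plus-direction sites in each library among all its sites (black bars), among recurring sites as deposited (red) and among recurring sites after the minus positions of the plasmid and Thi2 libraries were moved by 3 bp (open blue). The 5 plasmid and Thi2 libraries stand at 81.6% to 91.5% as deposited, and all 22 libraries lie between 44.4% and 51.9% after the move.

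The Gal4 and Leu3 plasmid libraries shared no site at all, neither recurring nor other. When 1 of them was slid by 7 to 30 bp, a median of 54 sites coincided. They also shared none after the 3 bp move. These are also the files that lack both chromosome 3 positions described above. The sources used here do not say whether sites were removed from these 2 files before deposit, so absence from either, and the counts of plasmid and Gal4 listings, refer to the lists as deposited. The 2 Thi2 libraries were the opposite case, with 644 shared sites against a median of 52.5 when slid, a ratio of 12.3. For the 16 multiplex libraries that ratio was 2.10 to 6.85.

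Recurring sites of opposite direction were paired at a fixed distance. A minus site lay 14 bp below a plus site in 184 pairs, whereas every other offset up to 60 bp gave 4 to 25 pairs (median 10). Of the plus sites 20.7% and of the minus sites 27.4% belonged to such a pair. Over the Sir4-free and multiplex libraries, 183 of the 184 pairs shared at least 1 library, with a median of 4 libraries listing both members and 9 listing either. The 1-file sites showed the same offset, with 15401 pairs against a median of 7416.5. Within every Sir4-free and multiplex library the commonest offset was -14 bp, and in all 5 plasmid and Thi2 libraries it was -11 bp.

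**Figure D3:**
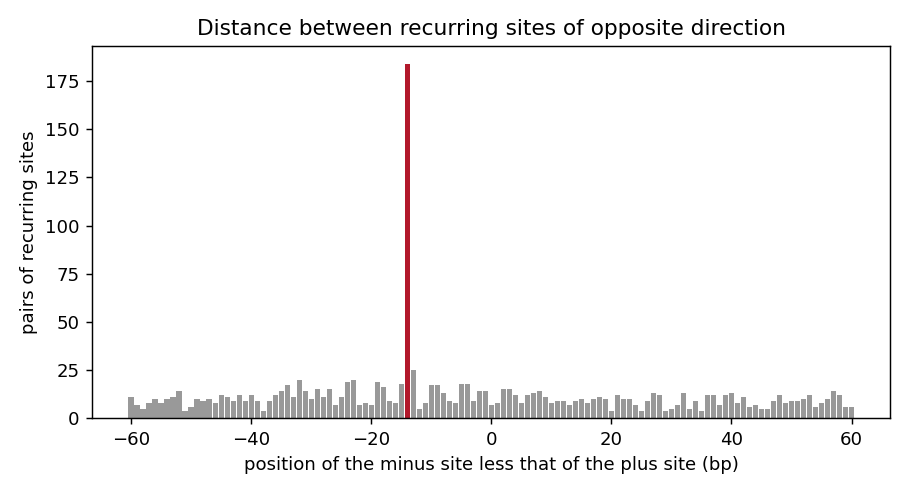
Number of pairs of recurring sites by the position of the minus site less that of the plus site, in bp, from -60 to 60. The red bar at -14 bp holds 184 pairs and every other offset 4 to 25.

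The sites were also crowded. The median distance to the nearest other recurring site, in either direction, was 14 bp. Another recurring site lay within 20 bp of 61.9% and within 200 bp of 84.8% of them. Split at gaps above 200 bp, they formed 454 stretches, of which 237 were single sites, while 33 stretches of 10 or more held 634 sites and the largest held 64. In the same direction, 95 pairs lay 1 bp apart, 67 lay 9 bp, 65 lay 5 bp, 57 lay 10 bp and 53 lay 4 bp apart, against a median of 26 pairs over 1 to 60 bp. A listed neighbour 1 bp away in the same library occurred at 9.40% to 41.7% of recurring sites and at 1.70% to 22.4% of 1-file sites. Whether sites at neighbouring bases came from separate insertions was not tested.

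Most recurring sites lay before genes. Distances were taken from the nearest protein-coding start in the RefSeq R64 annotation, in broad classes, because no source used here names the build of the files. Chromosome 11, where the annotation was displaced by 370 to 390 bp beyond the first 150 kb, was left out. Of the remaining 1433 sites, 70.8% lay within 1000 bp upstream of a start, against 58.0% of the 1-file sites and 74.9% of the 5-file sites just outside the rule. The class from 250 to 500 bp upstream held 31.1% against 17.7%, and the class from 0 to 250 bp held 19.3% against 28.3%. Inside genes lay 25.3% against 37.8%. The share within 1000 bp upstream was higher at recurring sites in 20 of 22 libraries, and lower in the 2 Sef1 libraries, at 66.5% against 70.5% in pool 1 and 66.4% against 69.1% in pool 2.

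A small share of genes was nearest to the recurring sites. The sites had 435 nearest genes, which is 7.25% of the 6002 protein-coding genes, and 20 genes held 467 sites, or 29.9%. These 20 were taken as the genes with most sites. No equal number of 1-file sites was counted, so whether such concentration is particular to recurring sites was not tested. The gene name was the same over the range of the annotation's displacement for 86.9% of the sites. Some lists of known targets and pathway genes were also counted, whichever libraries listed the recurring site. Of 11 Gal4 target genes 9 had a recurring site nearest to them, of 11 Leu3 targets 7, of 25 Gcn4 targets 5, of 22 mating and nuclear fusion genes 5 and of 23 thiamine genes only THI4, an enzyme of thiamine synthesis. Of 13 respiration genes 5 had one, of 12 cell wall genes 6, of 13 regulators of growth form and stress 4, of 8 G1 cyclin genes and regulators 5, of 16 glycolysis genes 3, of 11 hexose transport genes 1 and of 132 ribosomal protein genes 5. The target counts are not counts of the named fusion's own listings. The Leu3 plasmid library listed recurring sites at LEU1, LEU4, ILV5 and BAP2, but none at LEU9, ILV2 or ILV3. The Gcn4 plasmid library listed some at ARG56, LYS20 and SNZ1, but none at TRP4 or ASN1.

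YMR103C, a dubious reading frame on chromosome 13, had most, with 64 sites in 561 bp, 32 in each direction. Yrm1 made 127 listings of them in its 2 pools, Sef1 123, Gal4 81 and the other fusions 8 to 25, and the Sir4-free library listed 11 of the 64 sites. HAP4, which encodes the activator of respiratory genes, had 41 sites, all of which both Sef1 pools listed and 33 of which both Gal4 pools listed. The Sir4-free library listed 6 of them. PHO4, the regulator of phosphate genes, had 40 sites, of which Sef1 made 73 listings, Gal4 71 and Rpi1 41. PUT4, the proline permease gene, had 34 sites with 64 listings in Gal4, 50 in Yrm1 and 36 in Sef1. Over all recurring sites Gal4 filled 48.0% of its possible listings, Kar4 29.8%, Lee1 27.3%, Rgm1 10.2%, Rpi1 32.5%, Sef1 52.9%, Sfg1 50.9% and Yrm1 41.6%. Gal4 stood above its own overall share at all 4 genes, Sef1 at YMR103C, HAP4 and PHO4, Yrm1 at YMR103C and PUT4, and Rpi1 at PHO4 and PUT4, while Sef1 at PUT4 (52.9%) was at its overall share.

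Other genes were filled by other fusions. MIT1, a regulator of filamentous growth, had 24 sites, and both Rpi1 pools listed all 24. TEC1, a transcription factor of the same programme, had 15 sites with 22 listings in Kar4, 20 in Sfg1 and 4 each in Gal4 and Yrm1, and the Sir4-free library listed 14 of the 15. Both Yrm1 pools listed all 17 sites at PDR16, a phosphatidylinositol transfer protein gene, and all 25 at RGI2, an energy metabolism gene. Gal4 listed all 16 sites at CYC3, which encodes cytochrome c heme lyase, in both pools, as it did the 13 at GAL7 and the 12 at GAL10, both enzymes of galactose breakdown. At YPL062W, 17 sites were listed 28 times in Gal4 and 24 times in Rgm1, whose pools listed only 160 and 157 recurring sites in all. The 13 sites at YPR204W were all minus, were all listed in the Sir4-free library and in both Sfg1 pools, and had 21 listings in Lee1 and 3 in Gal4. Directions were mixed at most of these genes, but besides YPR204W also GAL7 was uneven, with 2 plus and 11 minus sites. By nearest gene, GAL10 had 10 plus and 2 minus sites, and GAL1, the galactokinase gene, 0 plus and 11 minus. GAL1 and GAL10 are transcribed apart from a shared promoter, and the nearer gene was the same over the annotation's displacement for 2 of the 11 and 5 of the 12 sites. Together the promoter thus had 10 plus and 13 minus sites, so its directions were mixed.

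**Figure D4:**
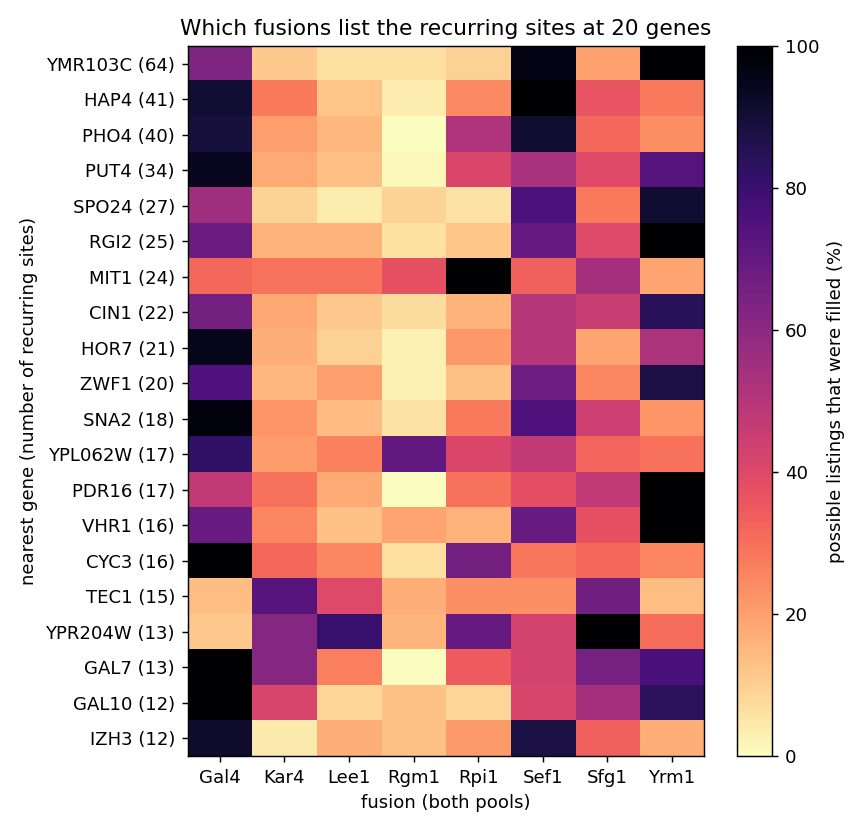
Percentage of the possible listings (number of recurring sites times 2 pools) that each fusion filled at the 20 genes nearest to most recurring sites. Sef1 filled all at HAP4, Rpi1 at MIT1, Gal4 at CYC3, GAL7 and GAL10, Yrm1 at RGI2, PDR16 and VHR1, and Sfg1 at YPR204W.

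Within the lists, the fusions parted by gene, with the same limit from the rule. ACO1, IDH2 and CIT1, which encode enzymes of the tricarboxylic acid cycle, had 8, 4 and 2 recurring sites, and both Sef1 pools listed all of them, with 16, 8 and 4 listings. No other fusion exceeded 9, 5 and 1 listings at these genes. CYC1, also on the respiration list, went the other way, with 1 site that had 2 listings in Yrm1 and none in Sef1. GAL2, the galactose permease gene, had 9 sites, all listed in both Gal4 pools, while the regulators GAL3 and GAL80 had 1 site each, also listed in both. Among the Leu3 targets ILV5, an enzyme of branched amino acid synthesis, had 4 sites and LEU1 3, and the Leu3 fusion itself had only its plasmid library. SED1 and CWP1, genes of cell wall proteins, had 5 and 8 sites, with most listings in Rpi1 (9) at SED1 and in Sef1 (10) at CWP1. CLN3, a G1 cyclin gene, had 5 sites with 8 listings in Gal4. The 5 ribosomal protein genes had 1 site each. ICY2, FKS2 and FLO8 could not be matched to the annotation and were not counted.

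The named strong sites of a fusion held few reads in the multiplex libraries of other fusions that listed them. The rule keeps only sites listed in at least 6 files, so listing outside a fusion's own libraries was fixed by it. At GAL7, the minus site at position 275741 of chromosome 2 held 11840 and 8210 reads in the Gal4 pools, and 10 of the other 14 multiplex libraries listed it with at most 21 reads. The site 1 bp above it, at 275742, held 8824 and 7085 reads in the Gal4 pools, 12 in the Sir4-free library and at most 9 in 11 of the other 14. The reads of both Gal4 pools stood above all other multiplex libraries at these sites. Like those named below for the other multiplex fusions, they were chosen for the smallest p on these same reads among sites higher in both pools. The separation therefore reflects that choice and is no separate result. At MIT1, the plus site at position 141264 of chromosome 5 held 7859 and 4428 reads in the Rpi1 pools and at most 27 in 6 of the other 14. At YOR1, which encodes a drug transporter of the plasma membrane, the plus site at 1052404 of chromosome 7 held 4139 and 3280 reads in the Yrm1 pools, 236 in the Sir4-free library and at most 5 in 8 of the other 14. At AZR1, another transporter gene, the minus site at 942594 held 2882 and 2379 Yrm1 reads and at most 4 in 6 of the others. At HAP4, the minus site at 230879 of chromosome 11 held 4388 and 1385 reads in the Sef1 pools and at most 50 in 7 of the others. Over all recurring sites, after scaling to library totals, the fusion with most reads held a median of 65.9% of the multiplex reads of a site, and at least 90% at 302 sites. Whether the low counts in the other libraries were insertions of those fusions was not tested.

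The named Kar4 and Rgm1 sites held fewer reads and were uneven between fusions too. At AFR1, a gene of recovery from pheromone, the minus site at 616570 of chromosome 4 held 668 and 505 reads in the Kar4 pools, 137 in the Sir4-free library and at most 32 in 3 of the other 14. At PCL2, a G1 cyclin gene with 11 recurring sites that Kar4 listed 22 times, the minus site at 234249 held 423 and 789 Kar4 reads and at most 45 in 4 of the others. At MSN4, a stress regulator gene, the plus site at 322027 of chromosome 11 held 266 and 56 Rgm1 reads and 1 read in 4 of the others, although the nearest gene there changed within the annotation's displacement. The minus site at 138844 of chromosome 9, near RHO3, a GTPase gene of cell polarity, held 417 and 359 Rgm1 reads and 1 read in 3 of the others, and its nearest gene changed within the displacement too. The Lee1 and Sfg1 sites were weaker. The plus site at 118519 of chromosome 11, near the zinc transporter gene ZRT3, held 15 and 132 Lee1 reads and up to 48 in 4 of the others, so the groups overlapped. The minus site at 511013 of chromosome 13, near YMR122C, held 85 and 100 Sfg1 reads and up to 142 in 3 of the others, and overlapped too.

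Some sites were led by a library without a replicate. The minus site deposited at 278708 of chromosome 2, near GAL1, held 2637 reads with Gal4 on the plasmid and 1424 and 1821 in the Gal4 pools, but given the 3 bp displacement of the plasmid library these may be reads of 2 bases. The plus site at 289645 of chromosome 12, near the galactose permease gene GAL2, held 1631 with Gal4 on the plasmid, 483 and 288 in the Gal4 pools, and 958 in Thi2 complete medium. This plus site is not touched by the displacement, and it was high in all 3 Gal4 libraries. With Leu3 on the plasmid, 1072 reads fell at the plus site 699711 of chromosome 4 near INO2, a regulator of phospholipid genes, and 677 at the plus site 478813 of chromosome 7 near LEU1, an enzyme of leucine synthesis, where the Sir4-free library held 60. The plus site 600344 of chromosome 4 near SED1, a cell wall protein gene, held 3601 reads in Thi2 complete medium, none after starvation, 186 with Gal4 on the plasmid and 81 and 28 in the Rpi1 pools. The plus site 540243 of chromosome 13 near GID8, a subunit of a ubiquitin ligase, held 7172 reads after starvation and none in complete medium. These are values of single libraries.

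Reads per site in the 16 multiplex libraries were compared in edgeR, with every fusion set against the average of the remaining 7, over 11172 sites listed in at least 3 of the 16 files. Of the 1560 recurring sites 1553 passed that filter. Both the filter and the rule chose sites by their listings, so the counts are a description. Gal4 was higher at 244 recurring sites (15.7%), against 15.2% of all sites tested. Kar4 was higher at 74 (background 6.42%), Lee1 at 71 (4.87%), Rgm1 at 73 (4.82%), Rpi1 at 112 (8.82%), Sef1 at 398 (20.9%), Sfg1 at 68 (3.98%) and Yrm1 at 279 (15.7%). The recurring share was 25.6% for Sef1, 18% for Yrm1, 7.21% for Rpi1, 4.76% for Kar4, 4.7% for Rgm1, 4.57% for Lee1 and 4.38% for Sfg1. It lay above the background most for Sef1 and below it most for Kar4 and Rpi1. In all, 986 recurring sites were higher in at least 1 fusion, 686 in 1 fusion and 300 in more. With the pool as a replicate block the number in at least 1 fusion was 516. The matching number over all 11172 sites tested was not taken, so neither number can be read as a trait of the recurring sites. The block left 137 in Gal4 (background 7.27%), 14 in Kar4 (1.12%), 1 in Lee1 (0.125%), 28 in Rgm1 (1.82%), 41 in Rpi1 (2.44%), 178 in Sef1 (7.15%), 1 in Sfg1 (0.0179%) and 190 in Yrm1 (8.42%). Without either of its own pools, the count was 150 to 158 in Gal4, 33 to 48 in Kar4, 28 to 34 in Lee1, 38 to 48 in Rgm1, 65 to 75 in Rpi1, 229 to 268 in Sef1, 8 to 38 in Sfg1 and 180 to 199 in Yrm1.

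That contrast called too often on simulated reads. On simulated reads for the Gal4 comparison over 11172 sites, 9.24% of unchanged sites had an unadjusted p below 0.05, and 18 unchanged sites were called. A fit of the fusion against the other 14 libraries as 1 group, added after this was seen, gave 3.97% and 1 false call, and recovered 4% of 8-fold and 17% of 32-fold changed sites. Under it 133 recurring sites were higher in a fusion, all of which the first contrast also called for that fusion. These were 49 in Gal4 (background 4.96%), 49 in Yrm1 (5.74%), 21 in Sef1 (3.1%) and 14 in Rpi1 (1.06%). None passed in Kar4, Lee1, Rgm1 or Sfg1, where 35, 13, 30 and 16 had an unadjusted p below 0.05. The recurring share was 3.16% in Gal4, 3.16% in Yrm1, 1.35% in Sef1 and 0.901% in Rpi1, below the background in all 4.

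The named sites split accordingly. They were chosen for the smallest p of the first contrast on the same reads, so the second fit is no independent support for them. The GAL7 sites of Gal4 had an adjusted p of 0.00391 in the second fit, the MIT1 sites of Rpi1 0.0281, the HAP4 sites of Sef1 0.0364 to 0.0448, and the YOR1 site at 1052404 and the AZR1 site of Yrm1 0.00925 (edgeR quasi-likelihood test, Benjamini-Hochberg). The Kar4 sites at AFR1 and PCL2 had 0.21 and 0.123, and the Rgm1 site at MSN4 0.109. The first contrast called all of these sites. With DESeq2 only the 3 GAL7 sites kept the call, and the MIT1, HAP4, YOR1 and AZR1 sites had an adjusted p of 0.666 to 0.927. The log2 fold of a site with no reads in several fusions depends on the prior count of the fit, so none is printed.

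The 2 pools of a fusion shared more recurring sites than pools of different fusions. Sharing was measured as the number of common sites over the geometric mean of both counts. It averaged 0.495 within fusions and 0.325 between different fusions of different pools, and no other pairing of the 8 fusions gave a higher mean (exact permutation over all pairings, one-sided, p = 2.48e-05, the smallest it can give). Relabelling leaves the number of files of each site as it is, but the size of the difference moved with the rule. The ratio of both averages was 1.52 for the recurring sites, 1.30 with at least 8 files, 2.07 with at least 4 and 5.22 for the sites in 2 to 5 files. Gal4 pools shared 502 sites, 62.4% of pool 1 and 72.3% of pool 2. Sef1 pools shared 535 (65.0% and 64.6%) and Yrm1 pools 415 (64.7% and 63.3%). Sharing was lower for Rpi1 (0.44), Kar4 (0.38), Lee1 (0.33) and Rgm1 (0.32). Kar4 and Lee1 pool 1 shared more with Sfg1 pool 2, at 0.41 and 0.40, than with their own second pool, and Sfg1 pool 1 shared more with Sef1 pool 2, at 0.55, than with Sfg1 pool 2, at 0.53. Different fusions among Gal4, Sef1 and Yrm1 shared 0.47 to 0.57, and Sfg1 pool 1 shared 0.47 to 0.55 with pool 2 of the same 3.

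**Figure D5:**
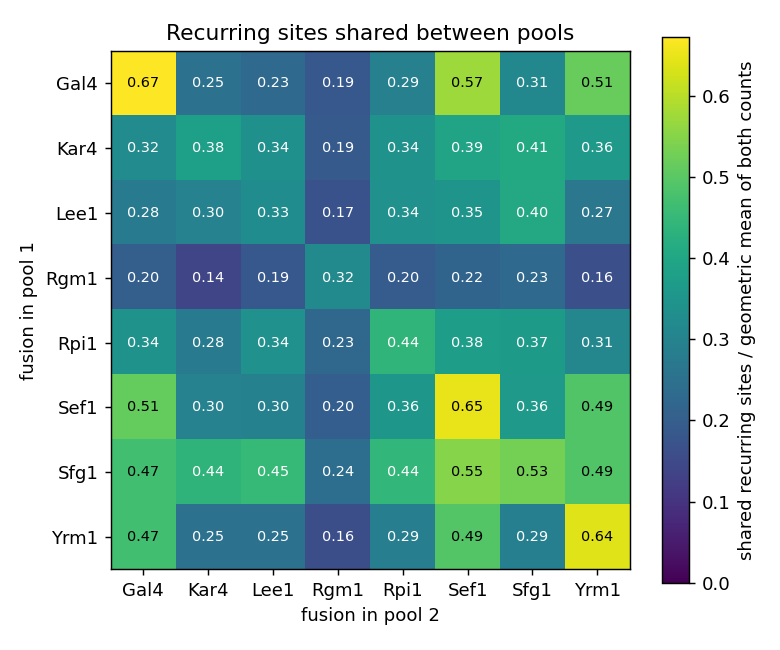
Recurring sites shared by each fusion in pool 1 (rows) and each in pool 2 (columns), as the number shared over the geometric mean of both counts. The diagonal, which holds the replicates of a fusion, is the highest value of its row for Gal4, Rgm1, Rpi1, Sef1 and Yrm1, and not for Kar4, Lee1 and Sfg1.

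Membership of a pool made a small difference. Pairs of different fusions shared 0.334 within a pool and 0.325 across pools, a difference of 0.00908 (exact permutation over all labellings, two-sided, p = 0.00781, the smallest it can give). Without listings under 2 reads the difference was 0.00418 (exact permutation, p = 0.227), and without listings under 5 reads 0.00691 (exact permutation, p = 0.102). The sharing within fusions kept its p below 0.05 in both of these settings.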

How the data were processed

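The deposited files give, per the labels and the series text, a chromosome, a position, a direction and counts as deposited by the authors, that is unnormalized reads per Ty5 insertion site. DNA was cut with Hinp1I, HpaII or TaqI, self-ligated, amplified by inverse PCR and sequenced on an Illumina GAII, per the labels' protocols. Aligner, genome build and read filters: not given in the sources used here. Cutting and amplification can favour sites, and reads of 1 PCR product are not independent molecules, so intervals cover counting error only.

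The Sir4-free file has 84113 rows for 79573 sites, whose reads were summed. Files were joined by chromosome, position and direction, and sites in at least 6 files were kept. The members, lists and tests were chosen with earlier results of these data known. Named sites are the 20 in most files, the 3 with the smallest p per fusion and the 3 with most reads per single library, and the text prints a selection. Named genes are the 20 with most recurring sites and the listed genes with a site.

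Reads were tested with the quasi-likelihood functions of edgeR 4.0.16 under R 4.3.3, with library totals as offsets and an adjusted p below 0.05, with a biological coefficient of variation of 1.81 and 8 residual degrees of freedom. Sharing used exact permutations. DESeq2 1.42.0 was an alternative. Tables were handled in pandas 2.3.3 and numpy 2.4.6, permutations and intervals in scipy 1.17.1, and plots in matplotlib 3.10.9, all under Python 3.11.15. The tests were checked on simulated data. RefSeq R64 gave gene names and neighbours only: 74 of 74 segments of 150 kb outside chromosome 11 lay within 60 bp of the data (median 10).

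Replicate numbers are pool numbers, which the labels give as shared by the 8 fusions. The deviations of same-numbered libraries from their fusion means were correlated with a median of 0.0311 over 28 pairs of fusions (-0.197 to 0.194, 5 above 0.1, 179 sites).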

Additional observations from a re-analysis of the deposited data

How the results depend on the processing

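The number of recurring sites was 3314 with at least 5 files and 790 with at least 7, 795 and 383 without listings under 2 and 5 reads, and 3591 with sites within 2 bp joined. Leaving out 1 library at a time gave 1110 to 1531. The ratio of median reads at recurring sites to that at 1-file sites ran from 1.33 to 47.1 over the 22 libraries (median 2.73). Under the other settings its median stayed within this spread. With a spread so wide that check could hardly fail, so no stability is read from it. The plus share was 61.1% without listings under 2 reads, 47.7% with minus positions moved and 48.1% over the multiplex and Sir4-free files only. The share of plus sites with a partner at 14 bp was 14.2% with at least 8 files, 15.6% without listings under 2 reads, 27.7% with positions moved and 25.7% over those files only. The upstream share was 66.1% with at least 8 files.

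Counts of sites with more reads depended on the fit. In any fusion they were 282 without the filter on low counts, 516 with the replicate block, 133 in the 2-group fit and 22 with DESeq2. No such number was taken over all sites tested. In the order Gal4, Kar4, Lee1, Rgm1, Rpi1, Sef1, Sfg1 and Yrm1, the counts were 70, 7, 0, 24, 32, 76, 0 and 89 without the filter, 137, 14, 1, 28, 41, 178, 1 and 190 with the block, and 20, 0, 0, 0, 0, 0, 2 and 0 with DESeq2. The 2-group fit gave 49, 0, 0, 0, 14, 21, 0 and 49. TMM factors gave 120 in Kar4, 26 in Rgm1 and 381 in Sfg1. With listings under 5 reads set to 0, Kar4 had 24, Lee1 24, Rpi1 66 and Sfg1 18, and with at least 5 of the 16 files Sfg1 had 109. Without 1 of its pools, Gal4 had 150 to 158, Kar4 33 to 48, Lee1 28 to 34, Rgm1 38 to 48, Rpi1 65 to 75, Sef1 229 to 268, Sfg1 8 to 38 and Yrm1 180 to 199, the lone library being assumed to vary like the others. Of the 24 named fusion sites, 19 kept their call with the block, 18 without the filter, 12 in the 2-group fit and 3, all at GAL7, with DESeq2, and none changed direction. The causes were not tested.

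The ratio of sharing within to between fusions was 1.41 to 1.61 without 1 fusion and 1.30 to 5.22 over the other settings, and its exact permutation p stayed below 0.05 under every alternative. The pool difference was 0.00738 to 0.0115 without 1 fusion, 0.00418 without listings under 2 reads and 0.00691 without those under 5.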
